A study of Mus musculus with 4 samples.

Results

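The genes described here are the pseudogenes among the genes whose RNA level changed in mouse embryonic stem cells (mESCs) treated with Go6983. They were taken as all genes of the deposited table whose gene type in the GENCODE M21 mouse annotation contains the word pseudogene, and no expression value was used to choose them. There were 78 pseudogenes among the 1577 listed genes, of which 1201 were protein-coding and 298 were of other types. The cells were 46C mESCs, an established line, grown in medium with serum. In 2 samples they were left untreated (NT), and in the other 2 they received Go6983, which inhibits protein kinase C, at 5 μM for 24 h. Total RNA was sequenced from each sample. The labels do not say whether the samples of a group were separate cultures, so p-values measure only the spread between these samples.

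A pseudogene is a copy of a gene that the annotation regards as having lost its protein-coding function. Processed pseudogenes were copied from a spliced mRNA back into the genome and usually lack introns and the promoter of the parent gene, whereas unprocessed pseudogenes arose by duplication of a piece of DNA and may keep introns. Unitary pseudogenes are genes that decayed without leaving a working copy in the same genome. Because a pseudogene resembles its parent, a short sequencing read may match both, and the count of a pseudogene can hold reads of the parent mRNA. The sources used here do not say how reads that match several places were counted.

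The deposited values are log2(normalized count + 1), and all levels below are normalized counts with the log2 and the added 1 undone. Every listed gene had been selected by the authors as changed, and the smallest absolute log2 fold change of a listed gene was 1.00, so each pseudogene had to differ between the groups and its change is a description of the list. From 859777 to 1054236 reads per sample could be recovered for the listed genes as a whole, and the depth of the whole libraries is unknown. Pseudogenes held 0.975% and 1.02% of these reads in NT and 1.04% and 1.05% after treatment. Of 10 pluripotency markers, 5 were listed, and their summed level ranged from 56352 to 56873 in NT and from 90876 to 94607 with Go6983. Of 5 fibroblast markers only Col1a2 was listed, at 31.8 to 40.9 in NT and 78.4 to 82.4 with Go6983, and of 3 neural markers only Pax6, at 58.2 to 78.6 and 23.5 to 27.1. None of the 4 trophoblast, 4 primitive endoderm and 3 mesendoderm markers was listed, which says nothing of their level. The part of these other cells in the changes of pseudogenes was not tested. In such bulk samples, fewer cells that express a gene and less RNA per cell cannot be told apart.

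For 74 of the 78 pseudogenes a parent was found, meaning the protein-coding gene with the best alignment to the annotated transcript of the pseudogene. All alignments to the parent together covered most of the pseudogene transcript for 62 of these and a smaller part for the other 12. For 3 of the 74 the best alignment was on the opposite strand. A parent is thus a best match and need not be the gene of origin. Identity was taken over the best single alignment only, which can be short. This identity to the parent ranged from 70.6% to 100%, with a median of 89.8%. The 100% was that of *Tmem181b-ps*, over 456 aligned bases of a transcript of 2426. The following stretches of 60 bases show how much or how little sequence sets a pseudogene apart from its parent. They were taken from the GENCODE M21 transcripts, on the strand of the transcript from 5′ to 3′. Each is the stretch of the parent coding sequence aligned without gaps in which most bases differ, and capitals mark the bases that differ. *Fabp3-ps1* (chr10:86732055-86732114, minus strand, GRCm38), *Gm12892* (chr4:122008587-122008646, plus strand), *Gm5454* (chr13:103357202-103357261, plus strand) and *Gm5802* (chr14:62541096-62541155, minus strand) are shown because their parents were listed too.
Fabp3-ps1: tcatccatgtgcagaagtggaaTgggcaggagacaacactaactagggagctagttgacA
Fabp3: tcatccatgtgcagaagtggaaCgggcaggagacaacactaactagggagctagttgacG
Gm12892: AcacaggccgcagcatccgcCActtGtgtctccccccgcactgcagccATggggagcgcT
Ckb: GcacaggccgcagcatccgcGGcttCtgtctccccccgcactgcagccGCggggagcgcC
Gm5454: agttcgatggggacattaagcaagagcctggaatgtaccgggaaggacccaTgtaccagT
Etv1: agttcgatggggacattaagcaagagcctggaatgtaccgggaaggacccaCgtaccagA
Gm5802: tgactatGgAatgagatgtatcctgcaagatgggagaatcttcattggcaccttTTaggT
Snrpn: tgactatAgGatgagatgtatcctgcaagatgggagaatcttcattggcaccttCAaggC
In these windows *Fabp3-ps1* differs from *Fabp3* at 2 bases and *Gm5454* from *Etv1* at 2, against 5 between *Gm5802* and *Snrpn* and 7 between *Gm12892* and *Ckb*. Over the whole coding sequence of 402 bases, *Fabp3-ps1* has 3 substitutions and no gap. The alignment of *Gm5454* to *Etv1* has 5 substitutions and 21 gap bases, and windows without gaps cannot show the latter.

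The next pair of windows is shown for a near copy and a diverged copy among the pseudogenes with high counts. *Gm18537*, a transcribed processed pseudogene (chr6:83548859-83550381, minus strand, GRCm38), is 99.9% identical to *Dennd4c*, and its window differs at 1 base. *Gm18363*, a processed pseudogene (chr13:19526644-19526703 for the window, plus strand), is 81.4% identical to *Cacybp*, and its window differs at 11 bases.
Gm18537: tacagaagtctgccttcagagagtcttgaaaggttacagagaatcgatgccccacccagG
Dennd4c: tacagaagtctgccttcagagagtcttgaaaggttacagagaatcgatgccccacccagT
Gm18363: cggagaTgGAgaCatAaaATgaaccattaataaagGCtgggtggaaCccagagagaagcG
Cacybp: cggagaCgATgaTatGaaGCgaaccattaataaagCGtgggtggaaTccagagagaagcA
Across all annotated transcripts, 96.6% of the 50-base windows of *Gm18537* also occur without mismatch in a transcript of another gene, against 0% for *Gm18363*.

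Pseudogenes were split almost evenly between higher and lower expression with Go6983, while most listed genes were higher. At a limma adjusted p below 0.05 over all listed genes, 40 of the 78 pseudogenes were higher (51.3%) and 36 were lower (46.2%). Among all listed genes, 68.8% were called higher and 29.7% lower. The share with a positive log2 fold change was 52.6% of pseudogenes, 69.9% of protein-coding genes and 73.2% of the other genes. The group with the higher mean reached 50 normalized counts for 31 pseudogenes, of which 15 were called higher and 15 lower, and of the 47 below that level 25 were called higher and 21 lower. For all listed genes the shares called higher were 67.9% and 70.5% at or above and below that level. The 2 pseudogenes not called were *Gm18042* (log2 fold change 1.02, SE 0.485, limma adjusted p = 0.0844) and *Gm14633* (log2 fold change -2.43, SE 1.49, limma adjusted p = 0.157).

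These counts fell when a library was left out, which leaves fewer samples in each fit. A call lost in this way does not by itself show that it rested on that library. Without NT replicate 1 the pseudogenes called higher and lower numbered 33 and 15, without NT replicate 2 they numbered 26 and 16, without Go6983 replicate 1 they numbered 15 and 12, and without Go6983 replicate 2 they numbered 16 and 8. Over all listed genes the counts fell too, to 858 and 307, 854 and 315, 461 and 288, and 431 and 260. Scaling each library by the median of its ratios across the list, which centres a list that is mostly higher, moved the median of all log2 fold changes by -1.10 and gave 9 pseudogenes higher and 36 lower, against 176 and 476 of all listed genes. Under that scaling 5 pseudogenes turned to a log2 fold change just below 0, namely *Gm12892* (-0.0021), *Tmem181b-ps* (-0.03), *Olfr1372-ps1* (-0.05), *Gm5637* (-0.07) and *Gm18042* (-0.07). No pseudogene turned its sign when the recovered reads were used without a size factor.

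Processed and unprocessed pseudogenes were counted apart. Of the 54 processed pseudogenes, transcribed or not, 23 were called higher and 29 lower, with a median log2 fold change of -1.07. Of the 17 unprocessed pseudogenes, 15 were called higher and 2 lower, with a median of 1.38. Among all listed genes, 68.8% were called higher and 29.7% lower. Under the median ratio scaling 2 of the 15 turned just below 0, and only 9 of all 78 pseudogenes were called higher. The 15 also include *Gm7905* and *Gm6221*, which have identical transcripts and values and add 1 measurement. *Gm10499*, another of the 15, had 33 reads in Go6983 replicate 1 and 2 in Go6983 replicate 2. The unprocessed pseudogenes that were lower were *Gm8189* and *Zscan4a*. Among the remaining 7, which were 2 transcribed unitary, 1 unitary, 1 polymorphic, 1 T cell receptor segment and 2 of no stated kind, 2 were called higher and 5 lower. The difference in direction between types was not tested, since all listed genes had been selected for their change.

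**Figure D1:**
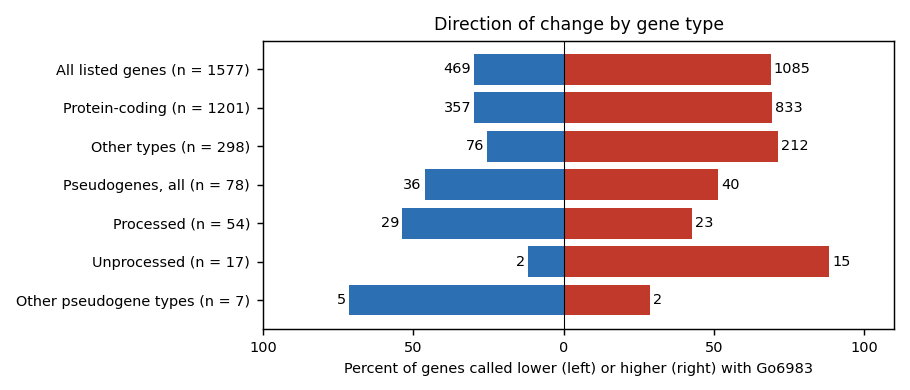
Percent of genes called lower (left) or higher (right) with Go6983 at a limma adjusted p below 0.05, for all listed genes, protein-coding genes, other types, all 78 pseudogenes and the 3 kinds of pseudogene; numbers beside the bars are counts of genes. Pseudogenes have 40 higher and 36 lower, processed ones 23 and 29 and unprocessed ones 15 and 2. When libraries are scaled by the median ratio of the listed genes, 2 of the 15 turn just below 0. Only 9 of all 78 pseudogenes are called higher under that scaling. *Gm7905* and *Gm6221*, also among the 15, have identical transcripts and values.

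With all count levels together, the size of the changes was close to that of the whole list. The median log2 fold change was 1.62 among the 41 pseudogenes with a positive value and -1.47 among the 37 with a negative value, against 1.42 and -1.49 for all listed genes. Below 50 normalized counts these medians were 2.27 and -1.52 for pseudogenes, against 1.83 and -2.02 for all listed genes. At 50 or more they were 1.17 and -1.19, against 1.29 and -1.36. Pseudogenes had lower counts, with a median of 42.0 normalized counts in the higher group against 94.7, and the median SE of their log2 fold change was 0.375 against 0.315. The samples of the groups did not overlap for 77 of the 78 pseudogenes, compared with 99.7% of all listed genes. The exception was *Gm14633*, a processed pseudogene of the ribosomal protein gene *Rps23*, with 0.995 and 57.2 in NT and 0.934 and 1.07 with Go6983. Only NT replicate 2 was high, and the call therefore turned on a single library, at an adjusted p of 0.00888 without NT replicate 1 and 0.952 without NT replicate 2.

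**Figure D2:**
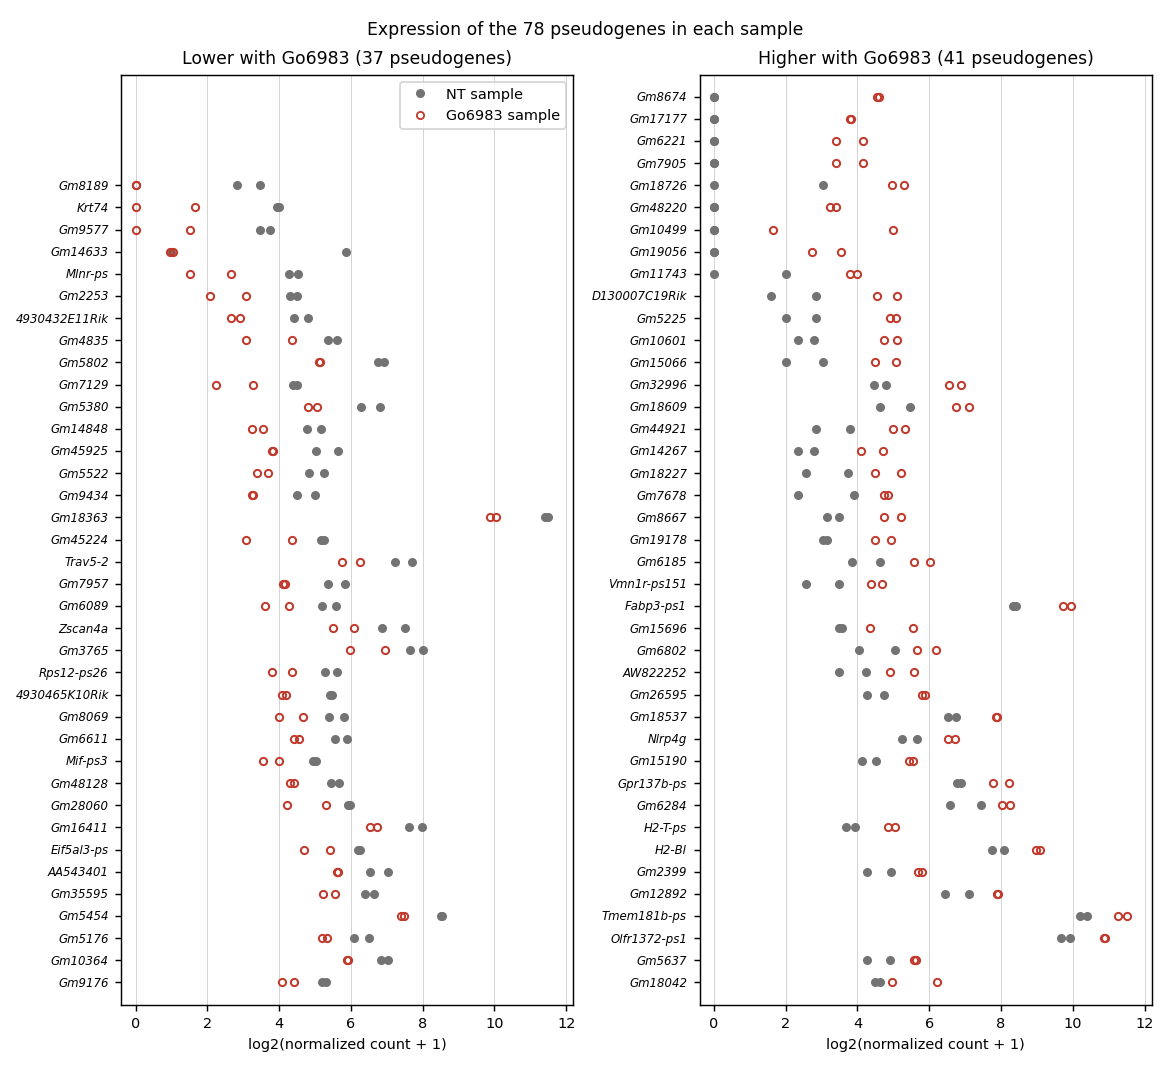
Level of each of the 78 pseudogenes in the 2 NT samples (filled grey) and 2 Go6983 samples (open red), on the log2(normalized count + 1) scale, ordered by fold change, with the 37 lower on the left and the 41 higher on the right. The groups are apart in every row but that of *Gm14633*, where 1 NT sample lies with the Go6983 samples, and 7 pseudogenes stand at 0 in both NT samples.

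The parent gene was itself listed for 7 pseudogenes, and in each of these pairs the pseudogene and the parent were called in the same direction. *Snrpn* was the parent of both *Gm5802* and *Gm35595*, and 69.7% of all listed genes had a positive log2 fold change. The agreement was not tested. *Fabp3-ps1* is a processed pseudogene of *Fabp3*, which encodes a fatty acid-binding protein. Its level was 322 and 342 in NT and 855 and 983 with Go6983 (log2 fold change 1.46, SE 0.126, limma adjusted p = 0.000428). That of *Fabp3* was 3450.0 and 3996 in NT and 9210.0 and 10966 with Go6983 (log2 fold change 1.44, SE 0.129, limma adjusted p = 0.000446). Both were higher in every treated sample, and *Fabp3-ps1* stayed at a near constant share of the *Fabp3* count, 9.34% and 8.57% in NT and 9.28% and 8.96% with Go6983. Per kb of annotated exon these shares were 19.1% and 17.5% in NT and 19.0% and 18.3% with Go6983. Of its 50-base windows, 64.0% occur in a transcript of another gene.

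*Gm5454* is a processed pseudogene of *Etv1*, which encodes an ETS family transcription factor. The pseudogene was measured at 371 and 365 in NT and 178 and 167 with Go6983 (log2 fold change -1.09, SE 0.136, limma adjusted p = 0.000975). *Etv1* was measured at 3057 and 2781 in NT and 1419.9 and 1302 with Go6983 (log2 fold change -1.10, SE 0.104, limma adjusted p = 0.000484). Both were lower in each treated sample, and the count of the pseudogene was 12.1% and 13.1% in NT and 12.6% and 12.8% with Go6983 of that of *Etv1*. Per kb of annotated exon, the pseudogene lay at 111% and 120.0% in NT and 115% and 117% with Go6983 of *Etv1*. These shares rest on 13296 bases for *Etv1*, the exons of all its annotated transcripts together, against 1453 for the pseudogene, and a single mRNA may be shorter. The share of the windows of *Gm5454* found in other genes was 81.3%.

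*Gm12892* is a processed pseudogene of *Ckb*, the brain-type creatine kinase, which buffers cellular ATP. It was found at 86.5 and 138 in NT and 241 and 234 with Go6983 (log2 fold change 1.11, SE 0.253, limma adjusted p = 0.00849). *Ckb* was found at 5748 and 6335 in NT and 11881 and 13059.7 with Go6983 (log2 fold change 1.05, SE 0.102, limma adjusted p = 0.000488). The pseudogene amounted to 1.51% and 2.18% in NT and 2.03% and 1.79% with Go6983 of the *Ckb* count, shares that overlap between the groups. Without Go6983 replicate 1 or 2 the adjusted p of *Gm12892* was 0.121 or 0.1198, while *Ckb* was called whichever of the 4 libraries was left out.

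*Snrpn*, which encodes a protein of the spliceosomal small nuclear ribonucleoproteins, is the parent of both *Gm5802* and *Gm35595*. These processed pseudogenes lie 187 bases apart on the minus strand of chromosome 14, within the body of the protein-coding gene *Gm4131*, and align to different stretches of the *Snrpn* transcript, *Gm5802* to the coding sequence and *Gm35595* outside it. *Gm35595* matches *Snurf* and *Gm38393*, which are not listed, equally well. *Snrpn* itself was at 11007 and 10790.4 in NT and 5078 and 4719 with Go6983 (log2 fold change -1.15, SE 0.0901, limma adjusted p = 0.000428). For *Gm5802* the level was 106 and 121 in NT and 33.6 and 34.3 with Go6983 (log2 fold change -1.71, SE 0.244, limma adjusted p = 0.00158), and for *Gm35595* it was 83.5 and 98.1 in NT and 36.4 and 46.0 with Go6983 (log2 fold change -1.13, SE 0.269, limma adjusted p = 0.00975). All 3 genes were lower in both treated samples. As a share of the *Snrpn* count, *Gm35595* was at 0.759% and 0.909% in NT and 0.717% and 0.975% with Go6983, which overlap. *Gm5802* was at 0.967% and 1.12% in NT and 0.662% and 0.726% with Go6983, with both treated shares below both NT shares, and its log2 fold change minus that of *Snrpn* was -0.56, a difference that was not tested. *Gm35595* was not called without Go6983 replicate 1, Go6983 replicate 2 or NT replicate 2, at an adjusted p of 0.0881, 0.0677 and 0.0719.

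The other pairs had less sequence in common. *H2-Bl* is a polymorphic pseudogene of the MHC class I family, whose proteins present peptides on the cell surface. It aligned best to *Gm8909* at 89.8% identity, just ahead of *H2-D1* (alignment scores of 1369 and 1363). It stood at 214 and 269 in NT and 541 and 505 with Go6983 (log2 fold change 1.12, SE 0.158, limma adjusted p = 0.00150), whereas *Gm8909* stood at 0 and 0 in NT and 4.67 and 13.9 with Go6983 and was at least 6.15-fold higher, set against 3 reads over both NT libraries (limma adjusted p = 0.00258). Per kb of annotated exon, the pseudogene was at 127, 160, 322 and 300.4 normalized counts in the same order of samples and *Gm8909* at 0, 0, 3.02 and 9.01, so the pseudogene was the more abundant of the pair in every sample. The best alignment of *Gm18609* to *Arhgap20* spanned only 103 bases of a transcript of 3601. All alignments of the pair together, shorter ones included, covered 9.22% of that transcript. Its level of 42.8 and 23.5 in NT and 138 and 106 with Go6983 (log2 fold change 1.90, SE 0.363, limma adjusted p = 0.00472) compared with 42.8 and 50.1 in NT and 97.1 and 97.4 with Go6983 for *Arhgap20* (log2 fold change 1.06, SE 0.240, limma adjusted p = 0.00849). Without Go6983 replicate 1 or 2 neither was called, at an adjusted p of 0.108 or 0.0857 for *Gm18609* and 0.0909 or 0.0937 for *Arhgap20*. *H2-Bl* fell just short of the threshold in the same fits, at 0.0535 and 0.0507. For the 67 other pseudogenes with a parent, that parent was not in the table. How far the counts of a pseudogene and its parent rest on the same reads was not tested.

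**Figure D3:**
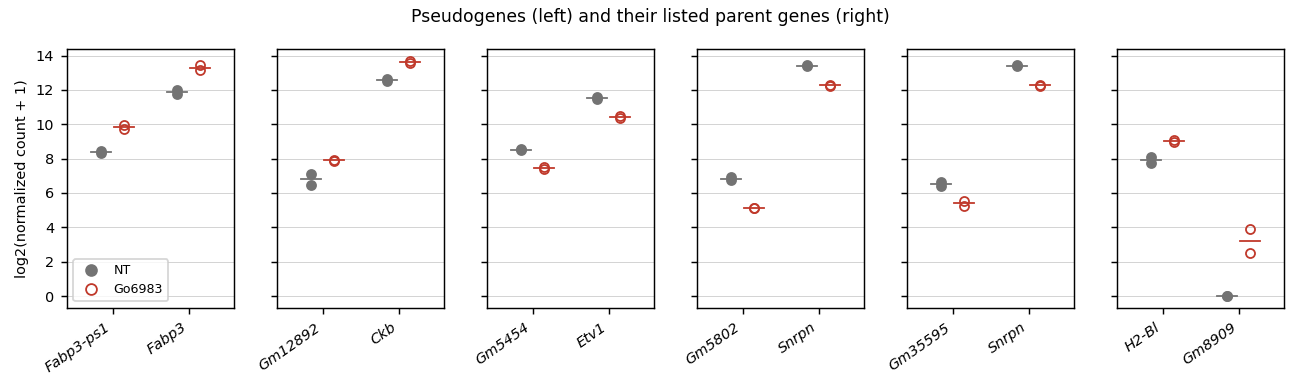
Levels of 6 of the 7 pseudogenes with a listed parent (left in each panel) and their parent genes (right) on the log2(normalized count + 1) scale, with 1 point per sample, NT in filled grey and Go6983 in open red, and lines at the group means. Both genes of each panel move in the same direction, with *Fabp3-ps1* and *Gm5454* at about the same distance below their parent in every sample and *H2-Bl* above *Gm8909*; *Gm12892* turns to -0.0021 when libraries are scaled by the median ratio of the listed genes.

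The pseudogene with the highest normalized counts was *Gm18363*, with 2703 and 2874 in NT and 1046 and 934 with Go6983 (log2 fold change -1.49, SE 0.105, limma adjusted p = 0.000389). It was lower in both treated samples, its parent *Cacybp*, which encodes calcyclin-binding protein, was not listed, and none of its windows occurs in a transcript of another gene. Next came *Tmem181b-ps*, a transcribed unprocessed pseudogene of *Tmem181a*, at 1353 and 1174 in NT and 2468 and 2935 with Go6983 (log2 fold change 1.09, SE 0.131, limma adjusted p = 0.000855). *Olfr1372-ps1*, a transcribed unprocessed pseudogene that aligned to the olfactory receptor gene *Olfr1383* over 18.3% of its transcript, was at 971 and 823 in NT and 1891 and 1856 with Go6983 (log2 fold change 1.07, SE 0.117, limma adjusted p = 0.000637). These 3 were called whichever library was left out, the last pair turning to just below 0 only under the median ratio scaling given above.

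Of the other pseudogenes among the 10 with the highest counts, 3 more were higher. *Gpr137b-ps*, related to a gene for a membrane protein, was at 118 and 109 in NT and 297 and 218 with Go6983 (log2 fold change 1.16, SE 0.205, limma adjusted p = 0.00355). *Gm18537*, the near copy of a stretch of *Dennd4c*, lies within the body of *Stambp* on the same strand and was at 91.5 and 106 in NT and 234 and 230.1 with Go6983 (log2 fold change 1.23, SE 0.173, limma adjusted p = 0.00150). Neither *Dennd4c* nor *Stambp* was listed. *Gm6284*, a processed pseudogene of *Baz2a*, a chromatin remodelling gene, was at 174 and 94.0 in NT and 262 and 306 with Go6983 (log2 fold change 1.14, SE 0.308, limma adjusted p = 0.0143). Its NT samples lay apart from each other, and without Go6983 replicate 1 or 2 the adjusted p was 0.140 or 0.186, whereas *Gpr137b-ps* and *Gm18537* were called whichever library was left out.

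Among pseudogenes that reached a mean of 50 in either group, the largest rise was that of *Gm32996*, a processed pseudogene 71.3% identical to *Cactin*, a splicing-related gene. Its level was 20.9 and 26.6 in NT and 93.4 and 117 with Go6983 (log2 fold change 2.10, SE 0.296, limma adjusted p = 0.00150), and no window of it is shared with another gene. The rise was just past the threshold without Go6983 replicate 1 and missed it without Go6983 replicate 2, at 0.04998 and 0.0641. Smaller rises, between 1.19 and 1.56 on the log2 scale, were those of *Gm6185*, *Gm6802*, *Gm26595* and *Nlrp4g*. *Gm6185*, for which no parent was found, was at 23.9 and 13.3 in NT and 46.7 and 64.2 with Go6983, and *Gm6802* at 31.8 and 15.3 in NT and 49.5 and 71.7 with Go6983. *Gm26595*, a copy of the ribosomal protein gene *Rpl12*, was at 25.9 and 18.4 in NT and 55.1 and 57.8 with Go6983. *Nlrp4g*, of the Nlrp family of cytoplasmic receptor genes, was at 36.8 and 49.0 in NT and 91.5 and 105 with Go6983. The groups were apart for each of these, at adjusted p-values of 0.0134, 0.0256, 0.0112 and 0.00852 in limma. None of the 4 was called without Go6983 replicate 1 or without Go6983 replicate 2, where these values were between 0.0893 and 0.241, and without NT replicate 2 *Gm6185* (0.0761), *Gm6802* (0.129) and *Gm26595* (0.0557) were lost too.

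The largest falls at that level, after *Gm5802*, were those of *Gm5380* and *Gm18363*. *Gm5380*, on the X chromosome, aligned best to the vomeronasal receptor gene *Vmn2r24* over 47.0% of its transcript, outside the coding sequence of that gene. The next best gene was *Cct7*, at an alignment score of 857 against 1040, so the gene that *Gm5380* was copied from is not settled. *Gm5380* was at 76.6 and 111 in NT and 27.1 and 32.1 with Go6983 (log2 fold change -1.61, SE 0.311, limma adjusted p = 0.00478). *Trav5-2*, a variable segment of the T cell receptor alpha locus, was at 150.2 and 207 in NT and 75.6 and 52.4 with Go6983 (log2 fold change -1.47, SE 0.279, limma adjusted p = 0.00460). *Zscan4a* belongs to the Zscan4 family, which is known in mESCs for expression in a small fraction of cells resembling the early embryo. It was at 180.0 and 116 in NT and 43.9 and 66.4 with Go6983 (log2 fold change -1.41, SE 0.326, limma adjusted p = 0.00890), and 63.6% of its windows occur in other genes. The closest gene, *Zscan4-ps2*, is annotated as protein-coding and 97.9% identical, just ahead of *Zscan4c* (alignment scores of 3886 and 3878). *Zscan4d*, a protein-coding gene of the family, was itself listed, and whether its reads add to the count of *Zscan4a* was not tested. *Gm5380*, *Trav5-2* and *Zscan4a* were each lower in both treated samples, *Zscan4a* with NT replicate 1 well above NT replicate 2.

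*Gm3765*, a copy of *Pwp1*, was measured at 257 and 199 in NT and 121 and 62.1 with Go6983 (log2 fold change -1.37, SE 0.347, limma adjusted p = 0.0117). *Gm6611* was measured at 45.7 and 58.2 in NT and 22.4 and 20.3 with Go6983 (log2 fold change -1.24, SE 0.324, limma adjusted p = 0.0130). *Gm28060*, which aligned to *Topbp1*, a DNA damage checkpoint gene, was measured at 59.7 and 62.3 in NT and 17.7 and 38.5 with Go6983 (log2 fold change -1.19, SE 0.430, limma adjusted p = 0.0366). Each was lower in both treated samples, and the Go6983 samples lay well apart for *Gm3765* and *Gm28060*. Apart from *Gm18363*, none of these falls, from *Gm5380* on, was called when either Go6983 library was left out, except that of *Trav5-2* without Go6983 replicate 1 (0.0490) and that of *Gm3765* without Go6983 replicate 1 (0.0337). The other values without Go6983 replicate 1 or 2 lay between 0.0623 and 0.174. Leaving out NT replicate 1 lost *Zscan4a* (0.0839), *Gm3765* (0.127) and *Gm28060* (0.175), and leaving out NT replicate 2 lost *Trav5-2* (0.0555), *Gm3765* (0.0786), *Gm6611* (0.0741) and *Gm28060* (0.188).

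The largest fold changes were those of pseudogenes with hardly any reads in a group. There were 7 pseudogenes at 0 reads in both NT samples and 1 at 0 in both Go6983 samples, for which only a bound can be given, set against 3 reads over both libraries of the group. *Gm8674*, a processed pseudogene related to *Gm906*, had 0 and 0 in NT and 23.3 and 22.5 with Go6983, at least 15.2-fold higher. *Gm10499*, of the MHC class I family, had 0 and 0 in NT and 30.8 and 2.14 with Go6983, at least 10.9-fold higher, with nearly all of its reads in Go6983 replicate 1, and it was not called without NT replicate 1 or 2, at 0.170 and 0.170. *Gm17177*, *Gm48220* and *Gm19056* were at least 8.57-fold, 5.96-fold and 5.39-fold higher. *Gm8189* was at least 5.37-fold lower, with 9.95 and 6.13 in NT and 0 and 0 with Go6983.

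*Gm7905* and *Gm6221*, unprocessed pseudogenes related to *Prame* at 72.7% identity, have identical annotated transcripts of 1386 bases. They lie 57500 bases apart on the X chromosome and had identical values, 0 in both NT samples and 16.8 and 9.63 with Go6983, or 18 and 9 reads, at least 8.74-fold higher each. No read from within these transcripts can be assigned to either of them by its sequence, and they add 1 measurement and not 2. Another 4 pseudogenes had 1 to 3 reads over both samples of a group. With the exact 95% interval of the ratio, which covers counting error only, *Krt74* was 14.7-fold lower (3.71 to 127), *Gm9577* 11.1-fold lower (2.73 to 97.5), *Gm14633* 28.8-fold lower (7.62 to 244) and *Gm11743* 9.23-fold higher (2.85 to 47.5). Without these 12 pseudogenes, 32 were called higher and 33 lower. The medians of 1.62 and -1.47 given above were the same with the pseudogenes at 0 set at their bound.

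Pseudogenes shared more sequence with other genes than coding genes did. A median of 11.5% of their 50-base windows occurred without mismatch in an annotated transcript of another gene, against 0% for listed protein-coding genes, and 14 of 78 pseudogenes (17.9%) shared at least 50% of their windows, against 60 of 1201 coding genes (5.00%). Among these 14, 8 were called higher and 5 lower. Among the 17 with no shared window, 9 were called higher and 7 lower. Of the 64 with less than 50% shared, 32 were called higher and 31 lower. Identity to the parent had a median of 94.1% in the 31 lower pseudogenes aligned over at least 50% of their transcript and of 87.0% in the 31 higher ones, a difference that was not tested.

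**Figure D4:**
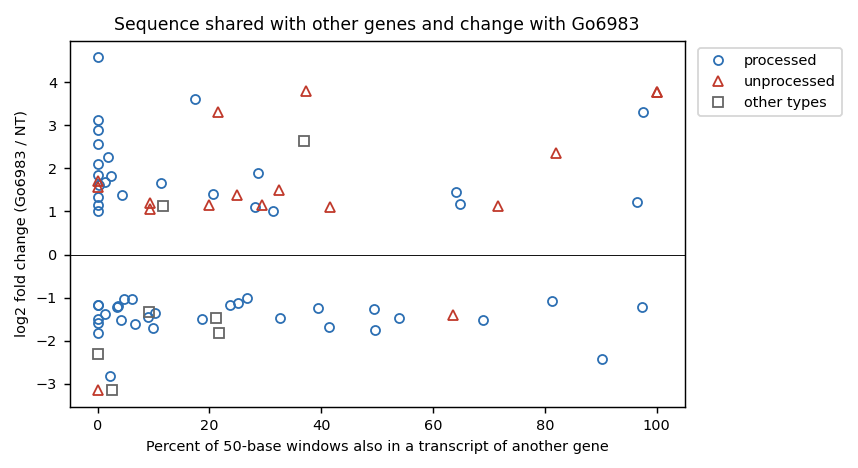
Log2 fold change of each pseudogene (vertical axis) against the percent of its 50-base windows that also occur in an annotated transcript of another gene (horizontal axis), with circles for processed, triangles for unprocessed and squares for other types. Higher and lower pseudogenes are found along the whole axis, with 9 called higher and 7 lower among the 17 at 0%.

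The parents belonged to many gene families, and few families held more than 2 pseudogenes. Ribosomal protein genes, whose mRNAs are among the most frequently copied, were the parents of 8 pseudogenes, of which 3 were called higher, 3 lower and 2 were not called. Zinc finger genes were parents of 4 (3 higher, 1 lower), olfactory and vomeronasal receptor genes of 3 (2 higher, and *Gm5380*, aligned outside the coding sequence, lower) and the glycolytic enzyme gene *Gapdh* and its copy *Gm10358* of 2, both lower. Translation factor genes and Nlrp genes were each parents of 2, with 1 higher and 1 lower. All 3 pseudogenes with an MHC class I gene as the parent or of that family were called higher, as were 68.8% of all listed genes. Of these, *H2-T-ps* was called in none of the fits that left out a library (0.0576 to 0.107), *H2-Bl* was not called without Go6983 replicate 1 or 2 (0.0535 and 0.0507), and *Gm10499* had nearly all of its reads in Go6983 replicate 1 and was not called without NT replicate 1 or 2 (0.170 for both). No parent was a histone, heat shock, cytochrome c oxidase, ATP synthase, Hnrnp, cytochrome P450 or ubiquitin enzyme gene, nor one of the pluripotency genes searched for.

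The 78 pseudogenes lay on 20 chromosomes, and 12 of them (15.4%) were on the X chromosome, which held 3.30% of all listed genes. Of these 12, 6 were called higher and 5 lower, and 10 were below 50 normalized counts. They include *Gm7905* and *Gm6221*, which have identical transcripts and values, and the neighbours *Gm5380*, *Gm7129* and *Gm9434*. The share of all annotated pseudogenes that lie on the X chromosome was not computed, and the difference from all listed genes was not tested. No pseudogene overlapped another listed gene, 20 overlapped a protein-coding gene that was not listed, and 17 of these 20 shared no exon bases with it. Among the 48 that overlapped no other gene, 23 were called higher and 25 lower.

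Pseudogenes lying within 100 kb of each other were found at 5 loci, and the members of each locus were called in the same direction. All 9 pairs they form went the same way, as did 251 of 330 pairs (76.1%) of other listed genes within 100 kb. The 9 pairs are not independent, since they share members and *Gm6221* and *Gm7905* have identical transcripts and values. The difference between these shares was not tested. On chromosome 17, *H2-Bl*, *H2-T-ps* and *Gm10499*, all of the MHC class I family, were called higher within the same cluster. *H2-T-ps* was at 11.9 and 14.3 in NT and 28.0 and 32.1 with Go6983 (log2 fold change 1.14, SE 0.356, limma adjusted p = 0.0227). On the X chromosome *Gm5380*, *Gm7129* and *Gm9434* were called lower within a stretch in which the gaps between neighbours were 21603 and 50847 bases, and *Gm7129* and *Gm9434* aligned best to *Gapdh* and *Med4*. *Gm7129* was at 19.9 and 21.5 in NT and 3.73 and 8.56 with Go6983 (log2 fold change -1.69, SE 0.470, limma adjusted p = 0.0158), and *Gm9434* at 30.8 and 21.5 in NT and 8.40 and 8.56 with Go6983 (log2 fold change -1.50, SE 0.386, limma adjusted p = 0.0124). The remaining loci held *Gm5802* and *Gm35595*, *Gm6221* and *Gm7905*, and *Gpr137b-ps* and *Gm2399*, which was at 29.8 and 18.4 in NT and 54.1 and 50.3 with Go6983 (log2 fold change 1.12, SE 0.361, limma adjusted p = 0.0251). Some of these calls were lost when a library was left out, in fits with fewer samples. *H2-T-ps* was never called when a library was left out, at 0.0576 to 0.107, *Gm2399* was called only without NT replicate 1, at 0.0409, *Gm7129* only without Go6983 replicate 2, at 0.0287, and *Gm9434* was lost without Go6983 replicate 1 or 2, at 0.0925 and 0.0912.

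Whether a pseudogene could still encode its parent protein was read from the annotated sequence, not from the RNA. An alignment on the same strand to a parent with a coding region was available for 67 pseudogenes, and 38 of them covered at least 90% of the coding sequence of the parent. Of these 38, 23 carried a gap that breaks the reading frame and 19 a stop codon in the frame of the parent. In 17 no ATG was seen at the start of the parent coding sequence, which includes cases where the alignment did not reach that start. *Gm5454*, 1 of these 17, had no frame-breaking gap and no stop codon over the 99.9% of the *Etv1* coding sequence it covered. The remaining 7 of the 38 had neither a frame-breaking gap nor a stop codon and kept the start codon, namely *Gm10601*, *Fabp3-ps1*, *Gm5637*, *Eif5al3-ps*, *Mif-ps3*, *Gm8069* and *Gm4835*. Of these, *Gm10601*, at 5.97 and 4.09 in NT and 33.6 and 25.7 with Go6983, *Fabp3-ps1* and *Gm5637*, at 28.8 and 18.4 in NT and 48.5 and 47.1 with Go6983, were higher, *Gm5637* turning just below 0 under the median ratio scaling. *Eif5al3-ps*, a near copy of the translation factor gene *Eif5a*, was at 72.6 and 74.6 in NT and 42.0 and 24.6 with Go6983. *Mif-ps3*, *Gm8069* and *Gm4835* were at 29.6 to 55.2 in NT and 7.49 to 24.3 with Go6983. The 4 falls were thus also seen in every treated sample, and the adjusted p of the 7 genes lay between 0.000428 and 0.0327 in limma. When each library was left out in turn, *Eif5al3-ps*, *Mif-ps3* and *Gm8069* were never called, at 0.0582 to 0.170, *Gm4835* was called only without Go6983 replicate 1, at 0.0480, and *Gm5637* only without NT replicate 1, at 0.0470.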

How the data were processed

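RNA-sequencing of 46C mESCs gave 4 samples, 2 NT and 2 Go6983, grouped by their labels. The authors deposited, for the genes they had selected as changed, a log2 value per sample. Bowtie 0.12.2 and the build mm9 stand in the submitters' processing notes, and the sources used here give no counter, annotation, strand setting or normalization tool. The authors' group means, fold changes, p-values and adjusted p-values are in the same table and were not used. The log2 values, with an added 1 undone, were whole multiples of a single step in each sample (100%, tolerance 0.05), which gives size factors of 1.01, 0.979, 1.07 and 0.934 and the number of reads. The listed genes hold 859777 to 1054236 reads per sample, and the depth of the whole libraries is unknown.

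Of 1577 gene IDs, 1572 were matched to GENCODE M21 (GRCm38), from which gene types, coordinates and transcripts were taken. Fold changes were fitted to the deposited log2 values by limma (version 3.58.1, under R 4.3.3, using lmFit and then eBayes with a trend, no block and no filter) and adjusted by the Benjamini-Hochberg method over all 1577 genes. The fit was also run on simulated data in which most genes were unchanged. Since every listed gene had been selected as changed, that check cannot vouch for the adjusted p-values given here. An exact permutation test of 2 samples against 2 cannot go below a two-sided p of 0.333 and was not used. Parents were found with blastn 2.17.0 (at least 100 aligned bases and 70% identity). Windows of 50 bases were looked up in annotated transcripts, where the plan had named the genome, which was not used here. Named were pseudogenes with a listed parent or a parent shared with another, the 10 with the highest mean, and, at a mean of at least 50, the 8 largest rises and 8 largest falls. Those named for 0 reads, for an intact frame, as neighbours and as exceptions were chosen after their values were seen, as was the Nlrp family. The members and lists were chosen with earlier results of these data known. Alternatives were other pseudocounts, filters, scalings, thresholds and tests, each replicate left out and the replicate number as a block. Figures were drawn with matplotlib 3.10.9.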

Additional observations from a re-analysis of the deposited data

How the results depend on the processing

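In the fit as reported 40 pseudogenes were higher and 36 lower. A filter at 50 normalized counts left 31 pseudogenes to test, with 15 higher and 15 lower, and a threshold of 4-fold left 14 higher and 4 lower. Scaling by the median ratio over the listed genes gave 9 higher and 36 lower, since it centres a list that is mostly higher. Leaving out 1 library at a time gave 15 to 33 higher and 8 to 16 lower, with fewer samples in each fit. The labels do not say that replicate numbers mark shared cultures, and samples with the same number did not deviate together (correlation 0.032 across genes, which are not independent replicates). With the replicate block, 39 were higher and 36 lower. Pseudocounts of 0.1 and 5, a filter at 10, no size factor, no trend, limma-voom on recovered reads and an unadjusted p with 2-fold gave 38 to 40 higher and 35 to 36 lower. Leaving out the 12 pseudogenes with 0 to 3 reads in a group, an alternative chosen after seeing the data, gave 32 and 33. Of the 312 fold changes of pseudogenes with 1 library left out, 1 changed its sign. Where both NT samples stood at 0, as for *Gm7905*, *Gm6221* and *Gm8909*, a fit without a Go6983 library has no spread within the groups. A call in such a fit was thus fixed in advance. None of the 26 named pseudogenes and 6 parents was reversed under the alternatives run for single genes, which did not include the median ratio scaling. Low counts limit the precision for pseudogenes below 50 normalized counts.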
